A study of Mus musculus with 3 samples.

Results

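The miRNAs of B16 cells, a mouse melanoma line, were described within 1 small-RNA sequencing library. Every mature miRNA with a read count above 0 in that library was taken, which gave 559 of the 1915 entries, or 29.2%. The cells were labelled as melanoma from skin of strain C57BL/6J, with no treatment, genotype or age given, and their total RNA had been extracted with Trizol. The library held 7925726 reads assigned to mature miRNAs. With 1 library there is no spread between samples, so no test was possible. Each exact 95% interval (Clopper-Pearson) covers the counting error of reads only. The counts were given without molecular identifiers, so copies made by amplification cannot be told from separate molecules. The smallest count above 0 was 10 reads, so an entry listed at 0 can hold up to 9 reads, which is 0.000114% of the miRNA reads. B16 is a tumour line kept in culture, and the labels do not say which subline, passage or number of dishes was used.

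A miRNA gene is transcribed as a long precursor from which the enzymes Drosha and Dicer cut a short hairpin and then a duplex of about the length of the mature miRNA. Usually 1 strand of the duplex, from the 5p or the 3p side of the hairpin, is loaded into an Argonaute protein and the other is degraded. Bases 2 to 8 of the loaded strand, the seed, pair with messenger RNAs and reduce their translation and stability, so miRNAs with the same seed share many targets and are grouped into seed families. Melanocytes, the pigment cells from which melanoma arises, are known for miR-211, which lies in an intron of the gene of the ion channel Trpm1 and is driven by the pigment cell factor Mitf.

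The sequences of the families that made up most of the library are shown first, from RefSeq (GRCm38.p6), 5′ to 3′, with the seed in capitals. Of the 559 listed miRNAs, 502 had an entry there. The let-7 members show how a shared seed is followed by a tail that differs by few letters.
let-7i-5p: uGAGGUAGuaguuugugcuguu
let-7f-5p: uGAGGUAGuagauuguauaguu
let-7g-5p: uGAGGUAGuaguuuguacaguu
let-7c-5p: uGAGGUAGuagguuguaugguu
let-7a-5p: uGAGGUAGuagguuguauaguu
let-7b-5p: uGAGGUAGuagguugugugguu
let-7d-5p: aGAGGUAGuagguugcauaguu
miR-98-5p: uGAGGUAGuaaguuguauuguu
let-7e-5p: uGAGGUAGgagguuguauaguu

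The miR-30 family, miR-21a, miR-7a and miR-9 are shown because they stand among the most abundant, and the miR-10 and miR-99/100 sequences because their seeds are near in sequence yet define separate families.
miR-30a-5p: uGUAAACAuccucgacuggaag
miR-30c-5p: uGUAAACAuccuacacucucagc
miR-30e-5p: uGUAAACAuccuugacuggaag
miR-21a-5p: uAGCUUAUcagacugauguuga
miR-7a-5p: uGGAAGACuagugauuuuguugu
miR-9-5p: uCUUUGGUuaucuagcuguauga
miR-10b-5p: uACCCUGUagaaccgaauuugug
miR-10a-5p: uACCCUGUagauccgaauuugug
miR-99a-5p: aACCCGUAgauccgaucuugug
miR-99b-5p: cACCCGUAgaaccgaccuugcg
miR-100-5p: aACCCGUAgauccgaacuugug

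The families with the seeds AUUGCAC and AAAGUGC join members from different clusters of the genome, and miR-211 and miR-204 are the pair of pigment cell and retinal epithelium miRNAs with 1 seed.
miR-92a-3p: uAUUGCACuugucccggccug
miR-25-3p: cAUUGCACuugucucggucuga
miR-32-5p: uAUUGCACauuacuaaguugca
miR-20a-5p: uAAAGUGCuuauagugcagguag
miR-93-5p: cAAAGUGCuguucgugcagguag
miR-17-5p: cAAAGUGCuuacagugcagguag
miR-211-5p: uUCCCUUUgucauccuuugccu
miR-204-5p: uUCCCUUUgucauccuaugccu

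A few miRNAs held most of the reads. let-7i-5p alone had 1244154 reads, 15.7% of the library, followed by miR-30d-5p with 652141 reads (8.23%) and let-7f-5p with 471792 reads (5.95%). The 3 together made up 29.9%, the 10 most abundant 59.3% (59.3 to 59.4), the 25 most abundant 81.2% and the 100 most abundant 97.2%. It took 8 miRNAs to reach 50% of the reads, 24 to reach 80%, 47 to reach 90% and 151 to reach 99%. At the other end, 256 entries with 10 to 99 reads held 0.112% of the reads together, and the median listed miRNA had 150 reads. The range from the lowest listed count to the highest therefore spanned 10 to 1244154 reads, and 18 miRNAs with 100000 or more reads held 74.2% of the total.

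**Figure D1:**
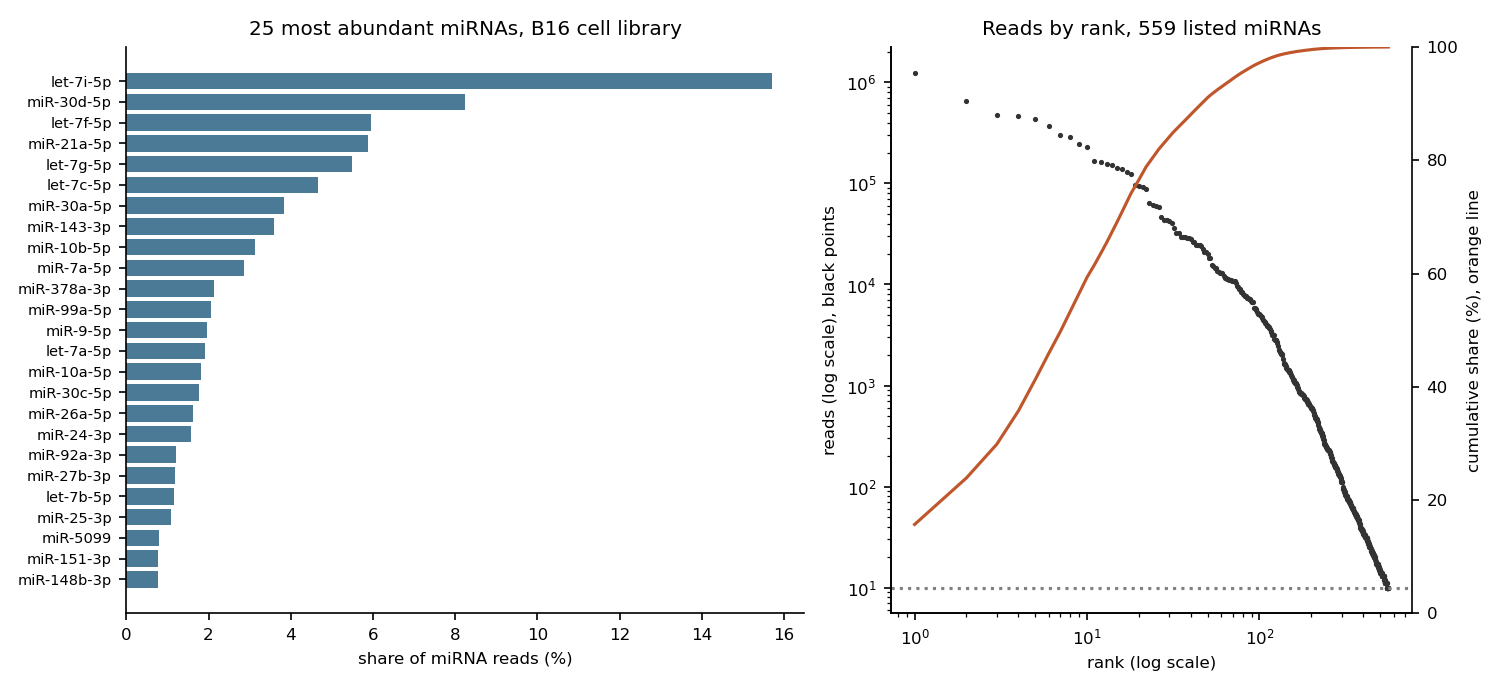
The left panel gives the share of miRNA reads (%) of the 25 most abundant miRNAs as bars. The right panel plots reads against rank for the 559 listed miRNAs, both on log scales, with the cumulative share (%) as an orange line on the right axis and the smallest listed count of 10 as a dotted line; the orange line stands at 59.3% at rank 10 and at 97.2% at rank 100.

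After those 3, miR-21a-5p, known for its high level in many tumours, had 465294 reads (5.87%). let-7g-5p had 435285 reads (5.49%) and let-7c-5p 370365 (4.67%). The let-7 miRNAs are known for repressing Ras, Hmga2 and Lin28. miR-30a-5p followed with 303201 reads (3.83%), and miR-143-3p, best known from smooth muscle and fibroblasts, with 285130 reads (3.60%). miR-10b-5p, encoded in the Hoxd gene cluster, had 248090 reads (3.13%), and miR-7a-5p, a repressor of Egf receptor signalling that binds the circular RNA Cdr1as, had 227416 reads (2.87%). These 10 were each set apart from the next in rank by more than counting error.

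The next 8 miRNAs also had over 100000 reads each. miR-378a-3p, from an intron of the metabolic coactivator gene Ppargc1b, had 168291 reads and miR-99a-5p, which represses Mtor, 163893 reads. miR-9-5p, best known from neural progenitors, had 155066 reads and let-7a-5p 151598. miR-10a-5p, the Hoxb relative of miR-10b, had 143555 reads and miR-30c-5p 139659. miR-26a-5p, a repressor of the histone methyltransferase Ezh2, had 128304 reads, and miR-24-3p, a repressor of cell cycle genes, had 124780. Below 100000 reads stood miR-92a-3p (96572), miR-27b-3p (94546), let-7b-5p (92385), miR-25-3p (87083), miR-5099 (63926), miR-151-3p (61303) and miR-148b-3p (60305). Of these 25 miRNAs, 16 were 5p arms, 8 were 3p arms and 1 carried no arm in its name. The half-width of the counting interval was at most 0.0254 percentage points, and none of the 24 pairs of neighbours in rank had overlapping intervals. The next neighbours whose intervals did overlap were miR-3074-5p (42958 reads) and miR-20a-5p (42339 reads), and among the 558 pairs of neighbours over the whole list 508 overlapped.

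The names carry numbers in the order in which miRNAs were described, and the reads lay with the old ones. Entries with numbers from 1 to 500, let-7 members included, were listed above 0 in 315 of 641 cases and held 96.8% of the reads. Entries numbered from 6001 to 9769 were listed in 82 of 717 cases (11.4%) and held 0.0642% of the reads, with miR-7688-5p the highest of them at 1363 reads. Between those, miR-744-5p led the numbers from 501 to 1000 with 22521 reads, miR-1198-5p those from 1001 to 3000 with 10896, and miR-5099 those from 3001 to 6000 with 63926.

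The base at the 5′ end was compared across abundance. Of all 1623 entries with a RefSeq sequence, 653 (40.2%) began with U, the base that the Argonaute pocket is known to prefer, and 212 (13.1%) began with G. Among the 144 entries with 1000 or more reads, 74 (51.4%) began with U and 6 (4.17%) with G. Among the 126 entries with at least 100 but under 1000 reads, 39 (31.0%) began with U and 14 (11.1%) with G, so the share of U did not rise steadily with abundance. Among those with 10 to 99 reads the shares were 40.1% for U and 14.7% for G, close to the shares among entries listed at 0 (39.9% and 14.1%). Weighted by reads, 83.9% of the reads with a known sequence (83.2% of all reads) came from miRNAs that began with U. The let-7 family weighs most in that figure, and miR-30d-5p and miR-30b-5p, without a sequence, are not in it. The median G and C content was 47.6% in the entries with 1000 or more reads and 52.2% in all entries.

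Seed families concentrated the library further. Families were made from the 504 listed miRNAs with a seed, 91.6% of the reads, by RefSeq sequence or, for miR-30d-5p and miR-30b-5p, by name. The other 55, with 8.41% of the reads, among them miR-143-3p and miR-378a-3p, were put in no family. By this grouping 423 families had a listed member. Of these, 48 had several listed members and together held 74.1% of the reads. Among these families, the 3 with the most reads held 56.0% and the 12 with the most held 77.6%. miR-143-3p (3.60%) and miR-378a-3p (2.12%) alone had more reads than several of the 12.

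The let-7 family (seed GAGGUAG) held 2839028 reads, 35.8% of the library (35.8 to 35.9). Of its 11 entries 10 were listed. let-7i-5p gave 43.8% of the family's reads and let-7f-5p 16.6%. let-7g-5p and let-7c-5p were close to that at 15.3% and 13.05%, and let-7a-5p gave 5.34%. The smaller members were let-7b-5p with 92385 reads, let-7d-5p with 43872, miR-98-5p with 18294, let-7e-5p with 11265 and let-7k with 18, and miR-1961 was listed at 0. The listed members thus ranged from 18 to 1244154 reads under 1 seed. let-7i-5p and let-7g-5p differ from each other in 2 of 22 letters. In contrast, let-7f-5p, let-7c-5p and let-7e-5p each differ from let-7a-5p in 1 letter, and let-7b-5p differs from let-7c-5p in 1. Reads of members that differ in 1 letter thus depend on single-letter assignment. How the authors assigned reads with a mismatch was not stated in the labels or the file.

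The miR-30 family (seed GUAAACA) came second with 1132613 reads, 14.3% of the library. miR-30 members are known for repressing factors of epithelial to mesenchymal transition, and miR-30d and miR-30b for promoting melanoma invasion. miR-30d-5p gave 57.6% of the family's reads and miR-30a-5p 26.8%. miR-30c-5p gave 12.3%, miR-30e-5p 2.17% (24577 reads) and miR-30b-5p 1.15% (13035 reads), and miR-384-5p, which has the same seed, was listed at 0. miR-21a-5p was the lone listed member of its family, at 5.87%.

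The miR-10 family (seed ACCCUGU) held 4.94% of the reads, of which miR-10b-5p gave 63.3% and miR-10a-5p 36.7%. The miR-99/100 family (seed ACCCGUA) held 2.82%, of which miR-99a-5p gave 73.2%, miR-99b-5p (58325 reads) 26.1% and miR-100-5p (1670 reads) 0.746%. miR-99a and miR-100 each neighbour a let-7 hairpin, and their counts stood far apart. miR-100-5p differs from miR-99a-5p by a single letter, so its reads depend on single-letter assignment. The miR-7 family held 2.88%, nearly all from miR-7a-5p, with 830 reads for miR-7b-5p.

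The family with the seed AUUGCAC held 2.46% and drew on 4 members from different loci. miR-92a-3p and miR-25-3p were near each other at 96572 and 87083 reads, miR-32-5p had 10946 and miR-92b-3p had 596. The family of miR-9-5p held 1.96%. The miR-26 family held 1.95% (miR-26a-5p 83.1% of it, miR-26b-5p with 26041 reads the rest) and the miR-27 family 1.78% (miR-27b-3p 67.1%, miR-27a-3p with 46452 reads 32.9%). miR-24-3p alone gave its family 1.57%.

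The family with the seed AAAGUGC, whose members are known for repressing the cell cycle inhibitor p21, held 1.24%. miR-20a-5p led it with 42339 reads, ahead of miR-93-5p with 28551 and miR-17-5p with 24765. miR-106b-5p had 2662 reads. The members made from the X-linked cluster were low, at 92 reads for miR-20b-5p and 47 for miR-106a-5p. Reads of miR-106a-5p, which differs from miR-17-5p by a single letter, depend on single-letter assignment.

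**Figure D2:**
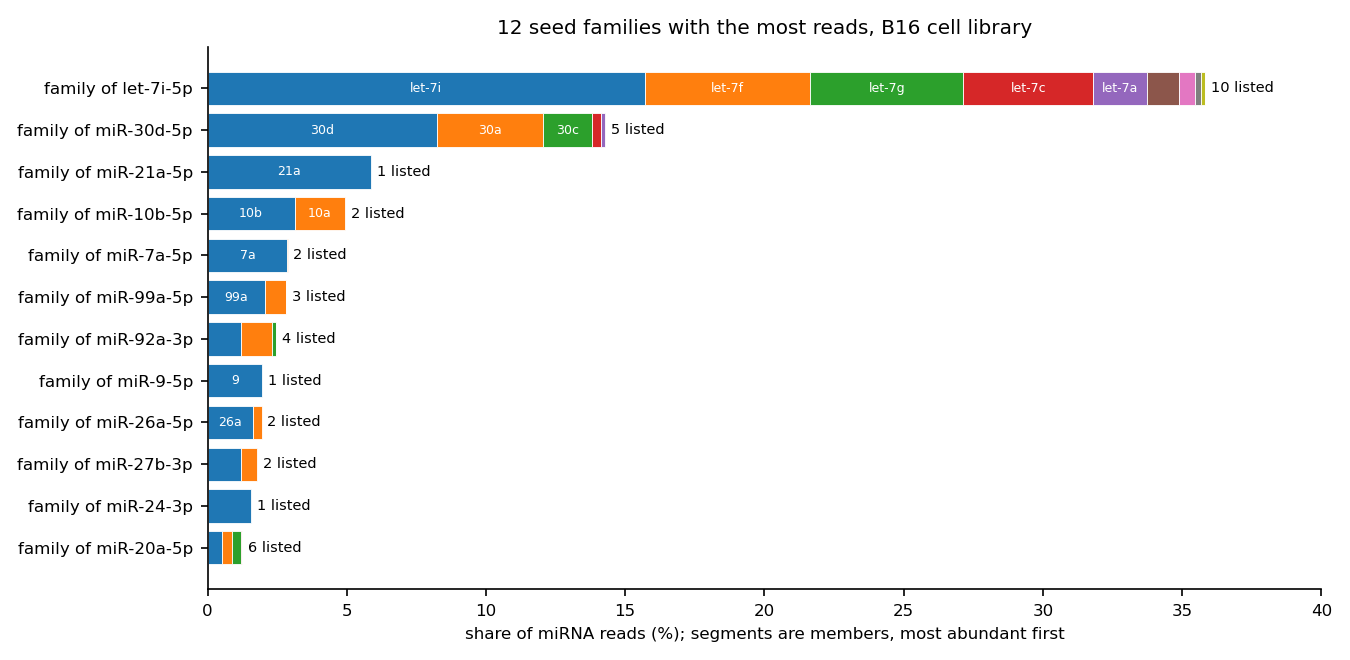
Bars give the share of miRNA reads (%) of the 12 seed families with the most reads among the 504 listed miRNAs with a seed (miR-143-3p and miR-378a-3p have none here), and coloured segments are their listed members, most abundant first, with the number of listed members at the right. The let-7 family reaches 35.8% over 10 members and the miR-30 family 14.3% over 5.

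For 789 hairpins both the 5p and the 3p arm had an entry. Both arms were listed above 0 for 174 of them, 1 arm for 172 and neither for 443. Arm use was described for the 156 hairpins with both arms listed and 100 or more reads over both. The 3p arm was ahead in 65 of these (41.7%) and the 5p arm in 91. More than 90% of the reads came from 1 arm in 105 hairpins (67.3%), 39 of them on the 3p side and 66 on the 5p side, and over 99% in 41. The median minor arm held 3.82% of a hairpin's reads. In 36 of the 156 an arm is shared with another hairpin, and its reads were counted in full for each. With these 36 left out, the 3p arm was ahead in 54 of 120 (45.0%). Of all reads, 5p arms gave 78.7% from 233 entries and 3p arms 19.9% from 264 entries. Names without an arm gave 1.33% from 62 entries. The let-7 and miR-30 families, nearly all 5p arms, held 35.8% and 14.3% of all reads.

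The hairpins with the most reads were strongly one-sided. For let-7i the 3p arm had 185 reads against 1244154, a 3p share of 0.0149% (0.0128 to 0.0172). The 3p arm of miR-21a had 32 reads (0.00688%) and that of let-7g 54 reads (0.0124%). For let-7f, made from 2 hairpins, the 3p arms had 580 and 163 reads against 471792, and for let-7c 7604 and 473 against 370365. For miR-30d it had 2043 reads (0.312%) and for miR-10b 1588 (0.636%). The 3p arm was the ahead arm of miR-143, with 285130 reads against 812 (99.7%), and of miR-378a, with 168291 against 1154 (99.3%). miR-99a had 16 reads on its 3p arm (0.00976%). miR-30a was the exception among these, with 28632 reads on its 3p arm and a 3p share of 8.63% (8.53 to 8.72), which put miR-30a-3p at rank 38 of its own.

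Several minor arms stood among the 100 most abundant miRNAs. miR-24-2-5p had 14513 reads beside 124780 of miR-24-3p, and miR-27a-5p had 10401 beside 46452 of miR-27a-3p. miR-423-5p had 7338 reads beside 32349 of miR-423-3p, a 3p share of 81.5% (81.1 to 81.9). miR-30e-3p had 11368 reads beside 24577 of miR-30e-5p, and its 3p share was 31.6% (31.1 to 32.1). miR-181a-1-3p had 5602 reads beside 13009 of miR-181a-5p. miR-30c-2-3p had 6744 reads beside 139659 of miR-30c-5p, and miR-99b-3p, at rank 100, had 5045 beside 58325 of miR-99b-5p.

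A hairpin with reads on both arms (Mir30e), a pair led by the 3p arm (Mir423 and Mir106b) and 1 led by the 5p arm opposite its family's seed (Mir130b) are shown with both mature arms in capitals, so that the duplex partners can be seen (RefSeq, GRCm38.p6). Mir30e lies in an intron of Nfyc at chr4:120772606-120772697 on the minus strand, Mir423 in an intron of Nsrp1 at chr11:77078064-77078172 on the minus strand, Mir106b in an intron of Mcm7 at chr5:138165737-138165818 on the minus strand and Mir130b in an intron of 2610318N02Rik at chr16:17124061-17124142 on the minus strand.
Mir30e: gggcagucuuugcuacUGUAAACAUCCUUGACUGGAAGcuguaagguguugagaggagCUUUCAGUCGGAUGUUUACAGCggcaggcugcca
Mir423: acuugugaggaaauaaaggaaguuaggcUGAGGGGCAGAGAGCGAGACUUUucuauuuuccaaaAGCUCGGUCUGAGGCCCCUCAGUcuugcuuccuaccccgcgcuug
Mir106b: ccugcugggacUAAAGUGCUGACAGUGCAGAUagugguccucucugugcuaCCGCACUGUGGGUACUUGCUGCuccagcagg
Mir130b: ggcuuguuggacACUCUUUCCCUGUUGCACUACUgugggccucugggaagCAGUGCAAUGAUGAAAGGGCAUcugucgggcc

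In some families the arm ahead was not the arm that carries the family's seed. The 3p arm of miR-106b had 26086 reads and the 5p arm, which holds the AAAGUGC seed, 2662, a 3p share of 90.7% (90.4 to 91.1). In its relatives miR-17, miR-20a and miR-93 the 5p arm was ahead, with 3p shares of 1.53%, 0.134% and 1.06%. The miR-130/301 hairpins carry their shared seed AGUGCAA on the 3p arm. Yet miR-130b had 10936 reads on its 5p arm against 523 on the 3p arm (3p share 4.56%), and miR-301a had 3586 against 613 (14.6%). miR-130a was the other way round, with 1560 reads on the 3p arm and 261 on the 5p arm (85.7%). The miR-322 hairpin carries the miR-16 seed on its 5p arm, which had 150 reads, against 5006 on the 3p arm (97.1%). The miR-130b, miR-301a and miR-322 hairpins were singled out after their values were seen.

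Near-even use was rare among abundant hairpins. Of the 122 hairpins with 1000 or more reads over both arms, 11 had a 3p share between 25% and 75%. Nearest to even stood miR-3068 with 556 reads on the 5p and 735 on the 3p arm (56.9%, 54.2 to 59.7) and miR-700 with 828 and 1127 (57.6%, 55.4 to 59.9). The hairpin of miR-3068 is also annotated as a small nucleolar RNA. miR-195a (60.1%), miR-503 (60.7%), miR-350 (70.1%) and miR-132 (70.7%) leaned to the 3p arm, and miR-330 (35.2%) and miR-30e to the 5p arm. For miR-16-1 (31.0%) and miR-181a-1 (30.1%) the 5p reads are shared with a second genomic copy, so the 3p share of this copy is a lower bound.

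**Figure D3:**
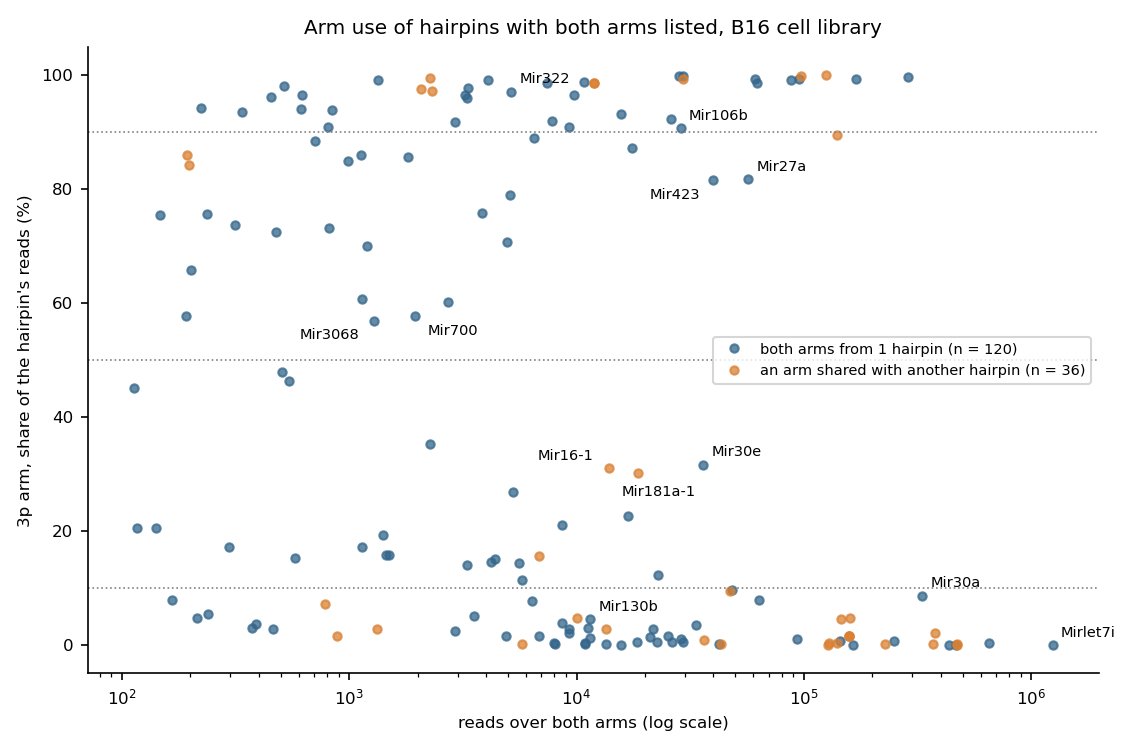
Each point is 1 of the 156 hairpins with both arms listed, placed by its reads over both arms (log scale) and the share of them on the 3p arm (%), with dotted lines at 10%, 50% and 90%. Orange points have an arm that another hairpin also encodes. Most points lie near the top or the bottom edge, and those near 50% have few reads.

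The 5′ base differed between the arms of a hairpin. Over 103 hairpins with both arm sequences known and no shared arm, the arm with more reads began with U in 53 and the arm with fewer reads in 20. In 45 hairpins the ahead arm alone began with U and in 12 the minor arm alone, while in 8 both did and in 38 neither. G stood first in 5 of the ahead arms and 17 of the minor arms. For comparison, 40.2% of all entries with a sequence began with U. Counting A and U among the first 4 bases, a rough mark of which duplex end opens more easily, the ahead arm had more in 44 hairpins, the minor arm in 26, and 33 were equal. miR-106b-3p and miR-130b-5p, which begin with C and A, were among the ahead arms without a U.

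A miRNA made from several copies of the genome cannot be traced to its copy by its main arm, but the other arm often differs between copies. For 20 such miRNAs at least 1 copy-specific arm was listed, and in 16 of them 1 copy gave over 90% of the copy-specific reads when a listed 0 is taken as 0. With a listed 0 set to 9 reads this held for 12 of the 20, let-7a and let-7c included, whose arm has a sequence that both share. miR-24-2-5p, from chromosome 8, had 14513 reads and miR-24-1-5p, from chromosome 13, had 72. miR-30c-2-3p (chromosome 1) had 6744 against 464 for miR-30c-1-3p (chromosome 4). miR-16-1-3p (chromosome 14) had 4300 reads against 481 for miR-16-2-3p (chromosome 3). These ratios describe the copy-specific arms, and the copies' shares of the main arm cannot be told apart.

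In 10 of the 20 a copy's own arm was listed at 0. miR-181a-1-3p had 5602 reads and miR-181b-1-3p 371, both from chromosome 1, and the arms of the chromosome 2 copies were at 0. miR-7a-1-3p, from an intron of Hnrnpk, had 216 reads and miR-7a-2-3p was at 0. miR-92a-1-5p of the miR-17-92 cluster had 190 reads and miR-92a-2-5p of the X-linked cluster was at 0. miR-128-1-5p (177 reads) and miR-19b-1-5p (51 reads) likewise stood against a second copy at 0. Even use was seen for miR-365, with 31 and 27 reads. miR-103-1-5p and miR-103-2-5p were both at 0 beside 40485 reads of miR-103-3p. let-7a-1-3p, with 7604 reads against a listed 0 for let-7a-2-3p, has the same sequence as let-7c-2-3p and the same count, so those reads may come from either hairpin.

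Some miRNAs lie on opposite strands of 1 hairpin. The most abundant case was miR-24-3p and miR-3074-5p, whose sequences match each other's reverse complement over 20 bases.
miR-24-3p: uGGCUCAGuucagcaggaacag
miR-3074-5p: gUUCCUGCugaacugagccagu
miR-24-3p had 124780 reads and miR-3074-5p 42958, a ratio of 2.90, and the copies on chromosome 8 led on both strands, with 14513 reads for miR-24-2-5p and 4489 for miR-3074-2-3p. Whether the counting used the strand was not stated in the labels or the file, so reads of the pair cannot be told apart by these counts alone. Of the 11 such pairs of hairpins, 4 had 1 strand over 10-fold ahead, with miR-126a-3p at 9434 reads against 232 for miR-126b-3p, miR-129-5p at 36043 against 54 for miR-129b-5p, miR-374b-5p at 6731 against 62 for miR-374c-5p, and miR-30e-5p at 24577 against 25 for miR-30f. miR-199a-3p and miR-199b-3p have 1 sequence and both were listed with 11717 reads.

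Hairpins on 1 strand whose neighbours lay within 10 kb were taken as a cluster, since they are often cut from 1 transcript. This gave 79 clusters, of which 55 had reads and 24 had none. Their 180 listed miRNAs held 47.1% of the reads, or 44.0% when reads of a miRNA with several copies are divided equally over them. Members of a cluster stood far apart: in the 25 clusters with more than 1 listed hairpin of a single locus, the median ratio of the highest to the lowest member was 7.24, and in 11 clusters it was over 10.

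With reads of multi-copy miRNAs counted in full in each cluster, the 5 clusters with the most reads all held let-7 or miR-30 members. With such reads divided over the copies, the cluster of miR-143 and miR-145a came 4th with 294586 reads, ahead of the let-7c-2/let-7b cluster with 286196 and the let-7f-2/miR-98 cluster with 254445. On chromosome 13, let-7a-1, let-7f-1 and let-7d lie within 2261 bases (chr13:48536012-48538272), with 471792 reads for let-7f-5p, 151598 for let-7a-5p and 43872 for let-7d-5p. On chromosome 15, miR-30b and miR-30d are neighbours (chr15:68337415-68341289), and miR-30d-5p had 50.03 times the reads of miR-30b-5p (49.2 to 50.9). miR-99a and let-7c-1 share the host transcript Mir99ahg on chromosome 16. let-7f-2 and miR-98 lie in an intron of Huwe1 on the X chromosome, with 18294 reads for miR-98-5p. let-7c-2 and let-7b lie together on chromosome 15 in the non-coding gene Lncppara, with 370365 and 92385 reads. let-7i-5p and let-7g-5p, by contrast, come from hairpins outside any cluster, let-7i outside annotated genes and let-7g in an intron of Wdr82.

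miR-143 and miR-145a, a pair known for its joint activity in smooth muscle, differed 41.8-fold (40.8 to 42.8). miR-143-3p had 285130 reads, miR-145a-5p 6822 and miR-145a-3p 1822. The miR-23/27/24 clusters exist in 2 copies. On chromosome 13 miR-27b-3p had 94546 reads and miR-23b-3p 7314, a ratio of 12.9, whereas on chromosome 8 miR-27a-3p had 46452 and miR-23a-3p 28144, a ratio of 1.65. miR-24-3p comes from both.

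The miR-17-92 cluster and its relatives, known for promoting proliferation downstream of Myc, were uneven as well. From Mir17hg on chromosome 14, miR-92a-3p had 96572 reads, miR-20a-5p 42339 and miR-17-5p 24765. The members in between were low, with 2165 reads for miR-19a-3p, 2028 for miR-19b-3p and 1131 for miR-18a-5p. The miR-106b-25 cluster in Mcm7 had 87083 reads for miR-25-3p, 28551 for miR-93-5p and 26086 for miR-106b-3p. In the X-linked miR-106a-363 cluster, the members found nowhere else were low: 92 reads for miR-20b-5p, 47 for miR-106a-5p, and a listed 0 for miR-18b and miR-363. The miR-92a-3p and miR-19b-3p reads are shared with the chromosome 14 cluster.

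**Figure D4:**
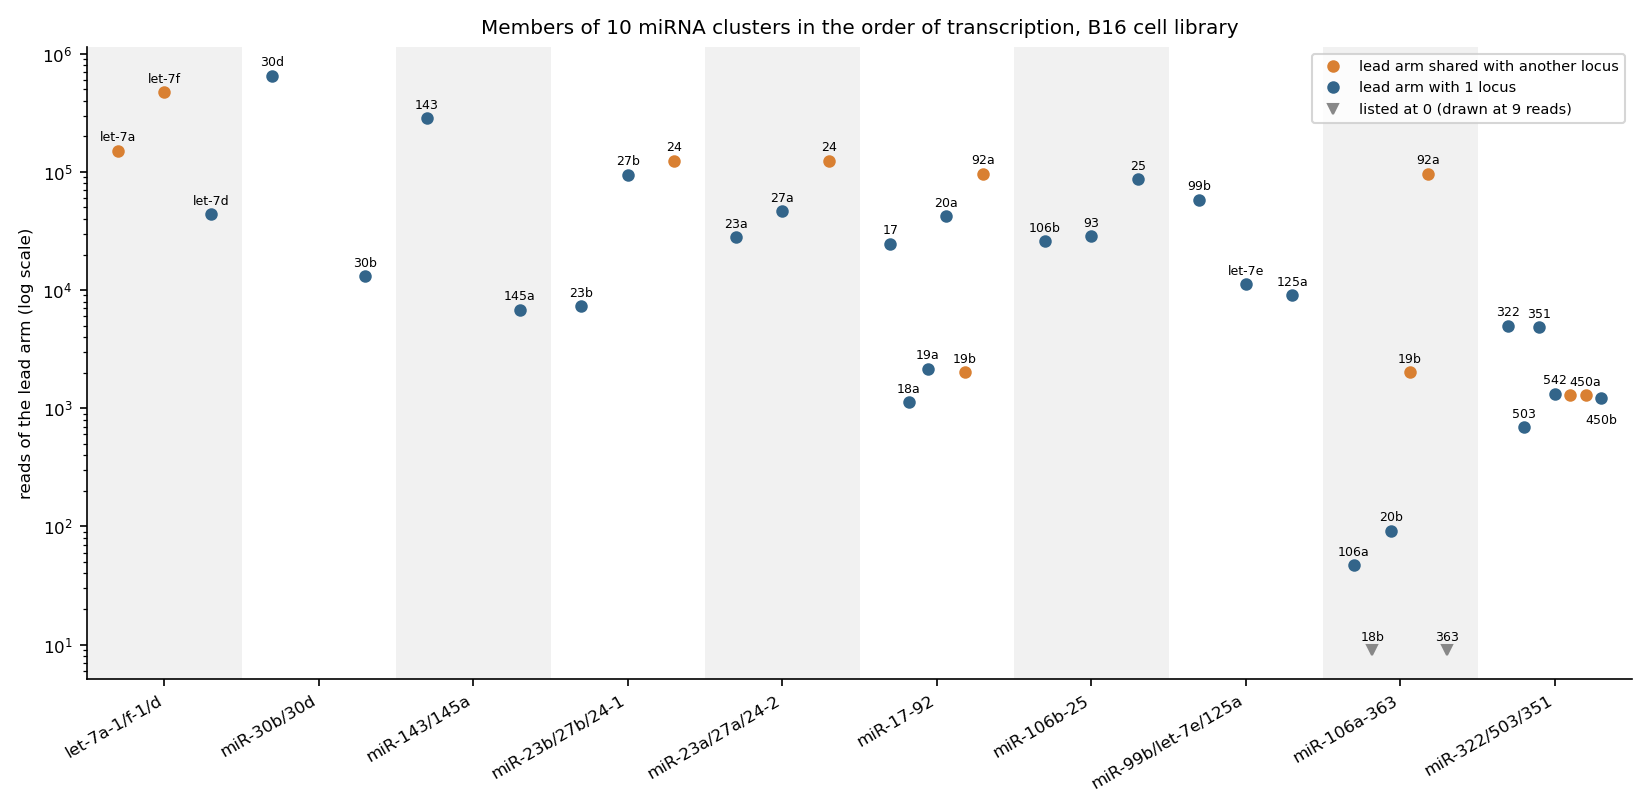
Points give the reads (log scale) of each hairpin's lead arm in 10 clusters, placed from left to right in the order of transcription. Orange marks a lead arm that another locus also encodes and grey triangles a listed 0 drawn at the limit of 9 reads. Within the clusters of miR-30d and miR-143 the members lie over 40-fold apart.

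The spread varied among other clusters. In the X-linked cluster of miR-532, miR-532-5p had 20770 reads, miR-501-3p 4034, miR-362-5p 946, miR-188-5p 231 and miR-500-3p 29, a ratio of 716 between the highest and the lowest (499 to 1070). In the cluster of miR-322, miR-503 and miR-351, known for slowing the cell cycle in differentiation, the 5 members of a single locus ranged from 691 to 5006 reads. miR-34c-5p, of a family induced by p53, had 6753 reads and miR-34b-3p 315. miR-99b-5p, let-7e-5p and miR-125a-5p, in an intron of Spaca6, had 58325, 11265 and 9048 reads.

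Large tissue-restricted clusters were nearly silent. In the imprinted Dlk1-Dio3 region on chromosome 12, known from embryo, brain and placenta, 4 clusters over both strands, with 57 hairpins, had 12 of 109 entries listed (11.01%, against 29.2% of all entries) and 397 reads together. The highest was miR-127-3p at 115 reads. The 13 hairpins clustered within Sfmbt2 on chromosome 2 and the 19 hairpins on the X chromosome (chrX:66776757-66839125) were listed at 0 throughout. Of the embryonic stem cell cluster around miR-290, miR-292a-5p had 38 reads and miR-293-5p 10.

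For 349 hairpins with a listed miRNA of a single locus, which gave 73.0% of the reads, the gene annotation (GENCODE vM21) was read at the hairpin. Of these, 164 (47.0%) lay in introns of protein-coding genes and gave 19.2% of all reads. The 66 hairpins outside annotated genes gave 28.9%, of which let-7i is the largest part. miR-21a lies in an exon of the annotated transcripts of Vmp1, miR-10b in an intron of Hoxd3, miR-378a in Ppargc1b and miR-148b in an intron of Copz1. miR-1839, miR-1843a and miR-1843b, at 9060, 2842 and 3347 reads for their 5p arms, overlap annotated small Cajal body RNAs.

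Lineage miRNAs were read from 12 lists with 69 members, of which 35 were listed and 34 were at 0. In the melanocyte list 5 of 6 (83.3%) were listed, against 29.2% of all entries and 49.1% of those numbered 1 to 500. That share was not particular to this list, with 85.7% in the mesenchymal list and 100% in the endothelial and liver lists. miR-211-5p had 21080 reads (0.266%, rank 48), and its hairpin lies in an intron of Trpm1 (chr7:64205806-64205911). miR-204-5p, with the same seed and an intron of Trpm3 as its home, had 60 reads. It differs from miR-211-5p by a single letter, so its reads, and its place among the 5, depend on single-letter assignment. The neural crest and sensory cluster of miR-183, miR-96 and miR-182 had 447, 65 and 655 reads. miR-137-3p, known as a repressor of Mitf, was listed at 0. Of this list miR-211-5p, known from pigment cells, was thus present and gave 94.5% of the reads.

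Counts in the epithelial list were low. The miR-200 family and miR-203 and miR-205, which mark keratinocytes and other epithelia, had 197 reads in all, with 71 for miR-200b-3p, 64 for miR-200c-3p, 47 for miR-203-3p and 15 for miR-200a-3p. miR-141-3p, miR-429-3p and miR-205-5p were at 0. Of the 7 members of the mesenchymal list 6 were listed, against 29.2% of all entries. The list held 7.11% of the reads, a share in which miR-199a-3p and miR-199b-3p, of 1 sequence and the same count, both enter. miR-143-3p and miR-10b-5p gave most of it, followed by the 11717 reads that miR-199a-3p and miR-199b-3p each show and the 6822 of miR-145a-5p. miR-199a-5p had 165 reads and miR-214-3p, which lies in the same transcript as 1 copy of miR-199a, was at 0.

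Blood cell markers were absent or low with 1 exception. miR-142a-3p, miR-142a-5p and miR-223-3p, which define leukocytes, were at 0, miR-150-5p had 10 reads and miR-155-5p 375. miR-146a-5p, a feedback inhibitor of NF-kappaB signalling that other cells also make, had 24373 reads. Of the red cell miRNAs, miR-451a had 13 reads, miR-144-3p was at 0 and miR-486a-5p had 153. miR-126a-3p, the endothelial miRNA known from the gene Egfl7, had 9434 reads and miR-126a-5p 345.

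The neural list held 2.79% of the reads. miR-9-5p gave 70.2% of it, beside 36043 reads for miR-129-5p, 29177 for miR-128-3p and 723 for miR-138-5p. miR-124-3p, the most abundant miRNA of neurons, and miR-219a-5p, of oligodendrocytes, were at 0. miR-9-5p could come from 3 copies, on chromosomes 3, 7 and 13, which have the same mature arms. Liver miRNAs were listed with 421 reads for miR-122-5p, 4145 for miR-192-5p and 870 for miR-194-5p.

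Of the 6 muscle miRNAs 2 were listed (33.3%, against 29.2% of all entries), both near the limit. These had 17 reads for miR-499-5p and 11 for miR-1a-3p. A listed 0 was given for miR-133a-3p, miR-133b-3p, miR-206-3p and miR-208a-3p. The pancreas markers miR-375-3p, miR-216a-5p and miR-217-5p were at 0. So were all 9 members of the stem cell list (miR-290a-5p, miR-291a-3p, miR-292a-3p, miR-294-3p, miR-295-3p, miR-302a-3p, miR-302b-3p, miR-302d-3p and miR-367-3p). Of 11 imprinted miRNAs 4 were listed (36.4%, against 29.2% of all entries). They had 115 reads for miR-127-3p, 49 for miR-379-5p, 48 for miR-541-5p and 25 for miR-411-5p. The other 7 (miR-434-3p, miR-410-3p, miR-675-5p, miR-483-5p, miR-669c-5p, miR-466a-3p and miR-298-5p) were at 0. Fewer cells that make a miRNA and less of it per cell cannot be told apart in this bulk RNA.

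**Figure D5:**
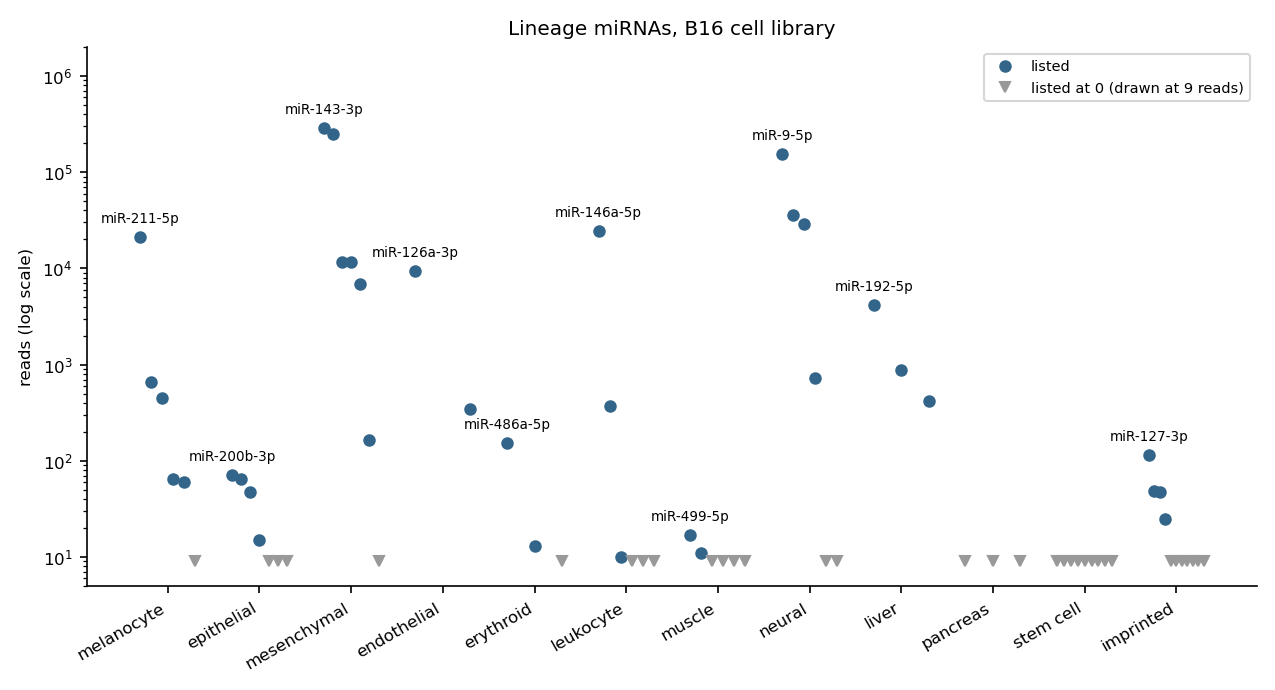
Points give the reads (log scale) of each member of the 12 lineage lists, with grey triangles for a listed 0 drawn at 9 reads and the highest member of each list named. Among the named members, miR-143-3p with 285130 reads, miR-9-5p with 155066, miR-146a-5p with 24373 and miR-211-5p with 21080 stand highest. The pancreas and stem cell lists hold triangles only.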

How the data were processed

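Small RNA was sequenced from B16 cells as 1 library. Reads were handled with bcl2fastq and BWA on build mm10, per the submitters' processing notes. Their versions, the miRNA release, strand use and the treatment of mismatched or multiply matching reads were not stated in the labels or the file. Per the file headers, the authors deposited a count of reads per mature miRNA and an RPM value. The deposited RPM equals the count times a constant whose total, 8721363, exceeds the 7925726 miRNA reads, and it served as an alternative denominator only. Shares of miRNA reads with exact intervals at 95% were computed in Python 3.11.15 (pandas 2.3.3, SciPy 1.17.1). A hairpin was described from 100 reads over both arms. Seeds were bases 2 to 8, and hairpins within 10 kb formed a cluster. Sequences and loci came from RefSeq (GRCm38.p6) and GENCODE vM21 (mm10 is the same assembly); 552 listed miRNAs had a locus. The interval step was tested on simulated counts, and the cluster and arm rules on made-up hairpins. Other steps were not tested in this way. Named miRNAs were the 25 most abundant, the members of the 12 top families, the hairpins with the most reads, the most balanced hairpins or an abundant minor arm, the members of the 8 top clusters and the lineage lists. Others (copy-specific arms, antisense pairs, further clusters) were chosen after their values were seen. Members and lists were chosen with earlier results of these data known.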

Additional observations from a re-analysis of the deposited data

How the results depend on the processing

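The library gives shares and no spread, and capture of single sequences during library making was not tested. With a minimum of 100 reads 303 miRNAs remained above it and with 1000 reads 164, and 22 of the lineage members had 100 reads. The 10 most abundant held 53.9% of the authors' total and 59.5% with entries of the same reads counted once. With at least 10000 reads over both arms, 21 of 72 hairpins (29.2%) had the 3p arm ahead and 63 of 72 (87.5%) had over 90% on 1 arm. Clusters held 44.0% with reads divided over copies, 38.5% with neighbours within 3 kb and 58.1% within 50 kb. The authors' total multiplies every share by 0.909, and leaving out the 10 most abundant multiplies the others by 2.46. Without members under 100 reads the epithelial and muscle lists held 0 reads and the imprinted list 0.00145%. Under a seed of bases 2 to 7 the 12 families moved by less than counting error. Setting a listed 0 to 9 reads could not change a printed 3p share, since each hairpin with one has both arms listed. When hairpins with 1 arm at 0 were added with that arm set to 9 reads, 88 of 204 (43.1%) had the 3p arm ahead. No paired analysis was possible because there is 1 library.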
